A study of Mus musculus with 5 samples.

Results

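A population of 604 cells that carried transcripts of secreted and matrix genes, led by Lum and Tnfrsf11b, was taken from 18260 single cells of the aortic arch of atherosclerosis-prone mice. The cells were chosen by measured values. A chosen cell had at least 3 of Lum, Tnfrsf11b, Prg4, Ltbp2 and Mmp3 above 0 and the leukocyte gene Ptprc and the endothelial gene Cdh5 at 0. It had fewer than 2 of the adventitial fibroblast genes Pi16, Clec3b, Dpt and Dpep1 above 0, and fewer than 2 of the cartilage genes Col2a1, Acan and Chad. The levels of these 14 genes are therefore a description and were not tested. RNA was counted from the 3′ end in droplets, and each molecule was tagged with a unique molecular identifier (UMI), so that a UMI stands for 1 captured RNA molecule. Levels are UMIs per 10000 UMIs of a cell (CP10K), averaged over the cells of a library.

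There were 5 libraries, 2 of them from Oasl1+/+Apoe-/- mice and 3 labelled Oasl1-/-Apoe-/-. All mice lacked Apoe, the apolipoprotein that clears remnant lipoproteins, and were kept on normal chow for 28 weeks. The Oasl1 line (B6.129P2-Oasl1tm1Lms) lacks the promoter and exon 2 of Oasl1, an interferon-induced gene of the oligoadenylate synthetase family, in every cell of the body. Cells came from pooled mice (n = 6), from the stretch between aortic root and curvature with the perivascular fat removed, and were sorted as live by DAPI. It is not stated that the libraries of a group came from separate pools, so p-values measure only the spread between libraries, which may be technical. The 2 groups are called the Oasl1+/+ libraries and the libraries labelled Oasl1-/- from here on, and per-library values are given in the order of their replicate numbers.

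Smooth muscle cells of a healthy artery are packed with contractile proteins and hold the vessel tone. In atherosclerosis some of them lose the contractile program, move into the plaque and make collagens, proteoglycans and inflammatory mediators, a change known as phenotypic modulation. Lum encodes lumican, a small leucine-rich proteoglycan that spaces collagen fibrils. Tnfrsf11b encodes osteoprotegerin, a decoy receptor that blocks osteoclast formation and is tied to vascular calcification. Prg4 encodes lubricin, Ltbp2 a binding protein of the elastic microfibril, and Mmp3 a matrix-degrading protease.

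The 3′ tags of Oasl1 lie outside the deleted promoter and exon 2 and could not check the labels. Over all cells Oasl1 had 27 and 16 UMIs in the Oasl1+/+ libraries and 299, 257 and 315 in the libraries labelled Oasl1-/-, so the signal was higher where the label says the gene was targeted. In the chosen cells it had 0 and 1 UMIs against 1, 2 and 2. Apoe transcript stood at 0.222 to 0.444 CP10K in the chosen cells and did not pass the test. The libraries held 3212 to 4338 cells, with a median of 4495 to 5186.5 UMIs a cell. The chosen cells were deeper, with median UMIs of 6064.5 and 6412.5 in the Oasl1+/+ libraries and 8407, 8747 and 9101 in the libraries labelled Oasl1-/-. Together they gave 489752 and 523589 UMIs against 1385908, 1404389 and 1514185. A barcode found in more than 1 library was carried by 331 cells, 17 of them chosen cells, and 1 such barcode was shared by 2 chosen cells.

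The choosing genes did not contribute equally. Lum had a UMI in 98.7% of the chosen cells, Ltbp2 in 86.3%, Tnfrsf11b in 78.8%, Prg4 in 43.7% and Mmp3 in 36.9%. In lymphocytes, which should lack these genes and give the share that free RNA leaves in a droplet, Lum had a UMI in 4.43% of cells, at a median depth of 1977 UMIs against 8092 in the chosen cells. Mean Lum in the chosen cells was 58.8 CP10K over the libraries, with a range of 50.4 to 75.1. The other 4 genes averaged 4.03 (Tnfrsf11b), 4.31 (Prg4), 4.48 (Ltbp2) and 16.3 (Mmp3) CP10K.

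Timp1, the tissue inhibitor of metalloproteinases and the 1 label marker that the rule did not use, was abundant in the chosen cells. It averaged 32.1 CP10K there and 0.357 in contractile smooth muscle cells, 7.42 in adventitial fibroblasts and 14.97 in cartilage-like cells. It had a UMI in 91.1% of the chosen cells and in 1.66% of lymphocytes. The compared groups were likewise defined by marker genes and held 9851 contractile, 301 fibroblast and 146 cartilage-like cells. These levels, and those of the next paragraphs, describe cells chosen by expression and carry no test.

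Contractile genes were present at reduced levels. Acta2, the smooth muscle actin, averaged 45.5 CP10K, between 12.7 in fibroblasts and 267 in contractile cells, and had a UMI in 92.5% of the chosen cells against 33.5% of lymphocytes. Myh11, the smooth muscle myosin heavy chain, stood at 2.79 against 1.34 in fibroblasts and 27.9 in contractile cells. Contractile cells were chosen by at least 3 of Myh11, Cnn1, Lmod1, Smtn and Mylk above 0. These genes are among the markers counted next, and their lower level in the chosen cells follows in part from that choice. Of the 16 contractile markers all 16 were more than 2-fold below contractile cells, and 12 of the 15 that could be compared were more than 2-fold above fibroblasts. Over all genes 6.48% were that far below contractile cells and 4.72% that far above fibroblasts. Fibroblast markers gave the mirror image, with 7 of 9 more than 2-fold above contractile cells and 9 of 10 more than 2-fold below fibroblasts. Over all genes these shares were 8.06% and 5.10%. Pdgfra, a receptor of fibroblasts, averaged 0.495 CP10K, against 0.038 in contractile cells and 1.39 in fibroblasts. Fibroblasts were chosen by at least 2 of Pi16, Clec3b, Dpt and Dpep1 above 0, and the chosen cells by fewer than 2. The lower fibroblast markers of the chosen cells follow in part from that choice. The means of these markers lay between both types, but they were averaged over a mixed population. The 201 chosen cells with fewer than 2 contractile genes averaged 8.54 CP10K of Acta2, below the 12.7 of fibroblasts. For the label of modulated smooth muscle or fibroblast-like cells the data thus give no single name.

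**Figure D1:**
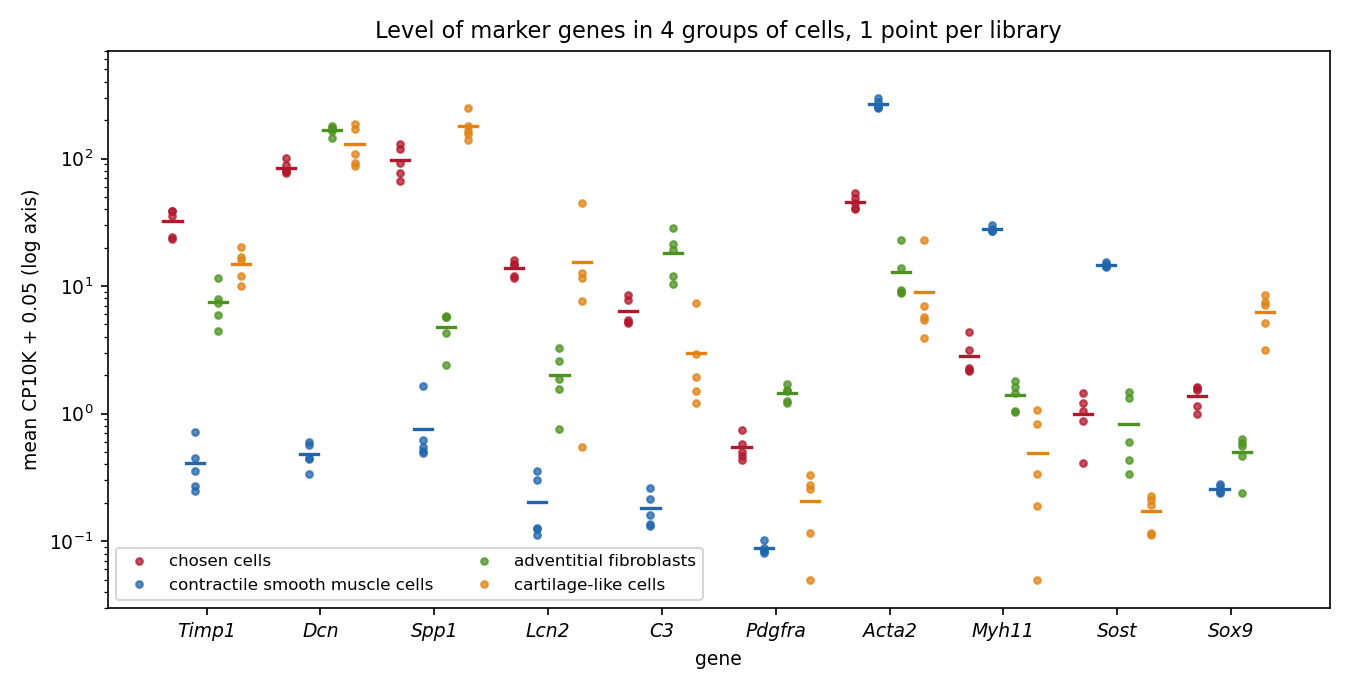
Mean CP10K + 0.05 on a log axis of 10 genes in the chosen cells (red), contractile smooth muscle cells (blue), adventitial fibroblasts (green) and cartilage-like cells (orange), with 1 point per library and a bar at the mean of the 5 libraries. Timp1 and Spp1 of the chosen cells lie far above contractile cells, whereas Acta2 and Myh11 lie between contractile cells and fibroblasts.

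Against contractile cells the genes furthest above were matrix and inflammatory genes. Dcn (decorin, a collagen-binding proteoglycan) averaged 84.8 CP10K against 0.429, and Spp1 (osteopontin, a secreted phosphoprotein of plaque cells) 96.9 against 0.714. The other 13 of the first 15 were Timp1, Saa3, Ly6a, Lcn2, Cytl1, 1500015O10Rik, Ly6c1, C3, Hp, Ccl2, Vcam1, Chil1 and Serpina3n, which include acute-phase proteins (Saa3, Lcn2, Hp, Serpina3n), complement C3 and the chemokine Ccl2. Of 14 acute-phase and metallothionein genes 12 were more than 2-fold above contractile cells, as were 23 of 35 chemokines and cytokines. So were 9 of 12 complement genes and 13 of 23 collagens, beside 8.06% of all genes. Against adventitial fibroblasts the same lists, in this order, were mixed. There 3 of 14, 8 of 39, 2 of 16 and 7 of 27 were more than 2-fold higher, beside 4.72% of all genes. In turn 2, 8, 6 and 4 were more than 2-fold lower, beside 5.10% of all genes. At the other end Sost, the Wnt antagonist sclerostin, was at 0.948 against 14.6. Slc22a2, Slc22a3, Pcp4l1, Optc, Sh3bgr, Sparcl1, Myh11, E030013I19Rik, Fbxl22, Tceal6, Ptprz1, Synpo2 and Stum were also among the 15 lowest.

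Against adventitial fibroblasts the furthest above were Igfbp2, Chil1, Spp1, Saa3, Itih4, Thbs1, Cthrc1, Rarres1, Tnc, Ibsp, Scx, Sncg, Ccl5, Lcn2 and Selp. Igfbp2, an insulin-like growth factor binding protein, averaged 1.76 CP10K against 0.00904. Tnc, the matrix protein tenascin C, was at 1.56 against 0.159, and Scx, the tendon transcription factor scleraxis, at 0.787 against 0.0564. The eotaxin gene Ccl11, at 1.77 CP10K in fibroblasts, had a UMI in 0 of 604 chosen cells, for which the upper 95% exact (Clopper-Pearson) bound on the share of cells with a UMI was 0.609%, covering counting error only and not a limit on expression. Inmt, Apod, Cygb, Ms4a4d, Scara5, Tmem100, Igfbp6, Sfrp1, Gpx3, Abca8a, Entpd2, Il33, Gpc3 and Svep1 followed it among the 15 lowest. Sox9, the chondrocyte transcription factor, averaged 1.33 CP10K, against 0.206 in contractile cells and 6.24 in cartilage-like cells.

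Some of these means rested on few cells. Saa3 averaged 6.41 CP10K and yet had a UMI in 44 of the 604 cells (7.28%), and Chil1, a chitinase-like protein, averaged 3.75 CP10K from 24 cells (3.97%). Chil1 differed between libraries from 0.0328 to 7.72 CP10K, both in Oasl1+/+ libraries. Lcn2, in contrast, had a UMI in 53.5% of the chosen cells and ranged from 11.5 to 15.9 CP10K.

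The rule cut through a gradient. Among stromal cells with 2 choosing genes above 0, just outside the rule, there were 570 cells, and with 3, 4 and 5 genes there were 391, 158 and 55. From 2 to 3 choosing genes Acta2 averaged 121.5 and 55.8 CP10K, Timp1 8.82 and 24.3, Spp1 11.05 and 42.0 and Dcn 32.3 and 65.3. With 5 choosing genes Acta2 was at 20.6, Timp1 at 75.6 and Spp1 at 261 CP10K. Depth moved along with this count, from a median of 6104 UMIs at 2 genes to 7650, 8693 and 10702 at 3, 4 and 5 genes, and its part in the gradient was not tested. The rule left out 170 cells with at least 3 choosing genes, 80 by the fibroblast genes and 90 by the cartilage genes.

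**Figure D2:**
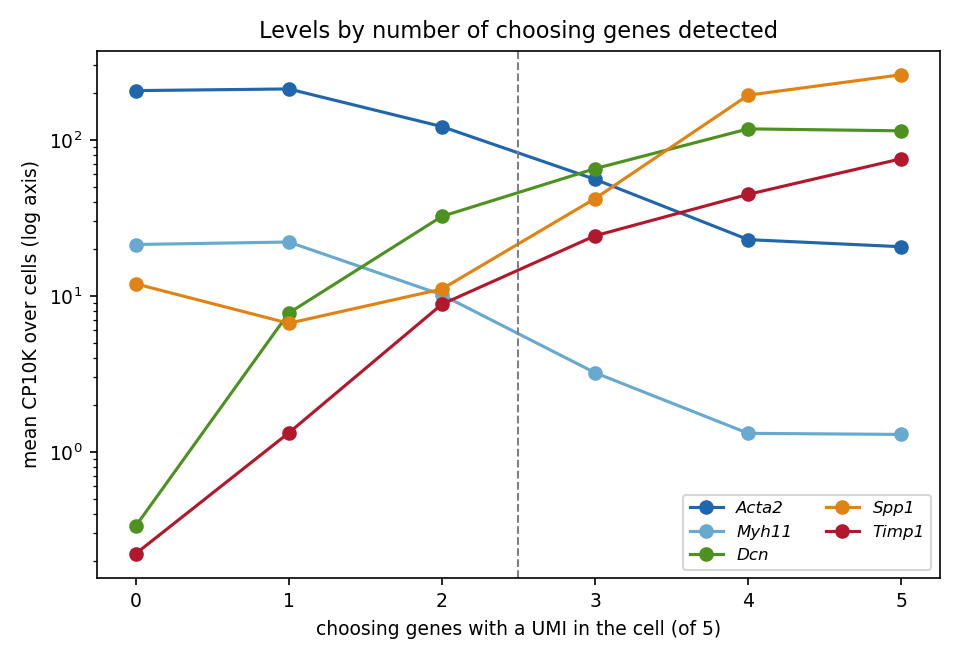
Mean CP10K over cells (log axis) of Acta2, Myh11, Dcn, Spp1 and Timp1 against the number of the 5 choosing genes with a UMI in the cell, with the rule's limit as a dashed line. Acta2 goes from 121.5 at 2 genes to 20.6 at 5 genes, and Timp1 from 8.82 to 75.6.

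The population was mixed within. At least 2 of the contractile genes Myh11, Cnn1, Lmod1, Smtn and Mylk had a UMI in 403 cells, and fewer than 2 in 201 cells, at nearly equal depth (medians of 8154 and 8059 UMIs). The 403 cells averaged 63.8 CP10K of Acta2, 42.4 of Spp1, 58.6 of Dcn and 2.55 of Igfbp2. The 201 cells averaged 8.54 of Acta2, 205 of Spp1, 138 of Dcn and 0.168 of Igfbp2. Igfbp2 thus lay mainly in the cells that kept contractile transcripts, and Spp1 and Chil1 (10.2 against 0.424 CP10K) mainly in those that did not. Lum was of the same order in both, at 51.6 and 73.3 CP10K. At least 2 of Saa3, Lcn2 and Serpina3n had a UMI in 247 cells, whose Mmp3 averaged 28.1 CP10K against 7.78 in the other 357 cells.

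Chosen cells made up a larger share of the libraries labelled Oasl1-/-. They were 70 of 4078 and 74 of 4338 cells in the Oasl1+/+ libraries, and 153 of 3404, 152 of 3212 and 155 of 3228 in the libraries labelled Oasl1-/-. The share was 1.71% ± 0.00755 (SD, n = 2) against 4.68% ± 0.161 (n = 3), with no overlap. With each cell thinned to 2000 UMIs the rule found 1.14% ± 0.0279 against 2.72% ± 0.0263. These are shares of sorted cells and depend on all other cells, and the choosing genes themselves differed between the groups: in contractile cells Lum was at 0.295 to 0.335 CP10K in the Oasl1+/+ libraries and at 0.554 to 0.676 in the others. The share is therefore given as makeup, with no test. The share of chosen cells with at least 2 contractile genes was 67.3% ± 2.27 (SD) against 66.5% ± 2.91 at the unequal depth of the groups, and 39.4% ± 1.21 against 32.7% ± 0.681, with no overlap, with each cell thinned to 2000 UMIs.

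Between the groups 226 of 9186 tested genes passed an adjusted p of 0.05 (limma on log2(CP10K + 0.05) of the library means, Benjamini-Hochberg), 2.46% of all. Of these 130 were higher in the libraries labelled Oasl1-/- (1.42%) and 96 lower (1.05%). The libraries of both groups did not overlap in 3015 genes, or 32.8%. On UMIs summed per library the split turned, with 56 higher and 101 lower (limma-voom), so that 35.7% of calls were higher in place of 57.5%. Of the 226 genes 50 passed in each fit that left out 1 library (31 higher and 19 lower). Without Oasl1+/+ library 1 or 2 there were 736 and 821 calls, fits in which the lone Oasl1+/+ library is assumed to vary like the others, and without library 1, 2 or 3 labelled Oasl1-/- there were 95, 59 and 59. The median difference over all tested genes was 0.05 (log2), and all differences are those of the libraries labelled Oasl1-/- minus the Oasl1+/+ libraries.

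Marker genes of other cell types also moved between the groups. The summed level of 12 macrophage and monocyte markers in the chosen cells was 1.14 and 0.537 CP10K in the Oasl1+/+ libraries and 3.45, 2.78 and 2.12 in the others, and 5 of the 8 tested rose. Macrophage-marked cells had sums of 479 to 504 CP10K, and Ptprc was at 0 in every chosen cell by the rule. At least 2 of these markers had a UMI in 11.2% ± 6.33 (SD) of the chosen cells against 37.6% ± 3.24, or 2.12% ± 1.04 against 7.01% ± 1.87 with each cell thinned to 2000 UMIs. Adgre1, Laptm5 and Aif1 were at 0 in both Oasl1+/+ libraries. Red cell markers summed to 1.62 and 1.87 CP10K against 0.439 to 0.486, and 3 of 4 fell. Lymphocyte markers summed to 0.0135 to 0.205 CP10K over the 5 libraries, endothelial markers to 1.37 to 3.03 (1 of 4 tested higher), cartilage markers to 11.6 to 22.9, and contractile markers to 127 and 139 against 98.7 to 113. Fibroblast markers summed to 22.7 and 23.02 against 13.3 to 17.1 CP10K, with 1 of 9 lower. Markers of neutrophils reached at most 0.0192 and of adipocytes at most 0.0115 CP10K, and those of Schwann and mesothelial cells were at 0. The part of these RNAs in the differences below was not tested, beyond counts given for chosen cells with fewer than 2 macrophage markers.

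Type I interferons signal through a receptor to transcription factors that bind a DNA element and switch on antiviral genes. Of 37 tested genes of this response 19 were higher and 0 lower (51.4% past the threshold), with a median difference of 1.22. Among the cells with fewer than 2 macrophage markers 12 were higher. Without libraries 1, 2 and 3 labelled Oasl1-/- there were 13, 9 and 8 higher, without Oasl1+/+ library 1 or 2 there were 22 and 25, and limma-voom gave 10.

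The element that such factors bind holds GAAA cores, and the RefSeq promoter windows of the interferon genes past the threshold were searched on both strands for GAAANNGAAA, that is 2 GAAA cores with 2 free bases between. Of the 19 genes 14 had a window (250 bases before to 50 after the start), and 9 of these had a match (64.3%). The share was 3.85% of tested genes with a window and 3.44% of all 32851 windows. The 14 genes come from a list of known interferon response genes, so this contrast describes the list and is no result of these data. No share was taken for list genes that did not pass. Other higher genes had a match in 18.1% and lower genes in 5.48%. A match describes letters and is not a site shown to be bound. Below are the stretches of 5 genes that changed, from GRCm38.p6, written 5′ to 3′ on the strand of the gene, with the match in capitals (TTTCNNTTTC is the same motif read on the other strand).
Ifit3, chr19:34583397-34583426, plus strand: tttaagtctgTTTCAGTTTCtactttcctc
Ifit1, chr19:34640794-34640823, plus strand: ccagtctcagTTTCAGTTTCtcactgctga
Oas1a, chr5:120907526-120907549, minus strand: tcgggaaatgGAAACTGAAAatct
Rsad2, chr12:26456553-26456582, minus strand: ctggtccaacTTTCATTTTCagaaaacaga
Bst2, chr8:71537577-71537606, minus strand: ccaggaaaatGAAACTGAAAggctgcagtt
The matches ended 5 bases before the start site in Oas1a and 76 to 115 bases before it in the other 4.

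Ifit3, whose product binds viral RNA together with that of Ifit1, was at 0.147 and 0.462 CP10K in the Oasl1+/+ libraries and at 1.08, 1.11 and 1.51 in the libraries labelled Oasl1-/-. The groups were apart, as in 32.8% of all tested genes, with a log2 difference of 1.997 ± 0.32 (SE), limma adjusted p = 0.0070. Ifit1, named after its values were seen, read 0.141 and 0.395 against 0.795, 0.747 and 1.30 CP10K, a difference of 1.74 ± 0.33. Bst2, Oas1a and Rsad2 were likewise named after their values were seen. Bst2, which tethers budding virus to the cell, went from 1.52 and 1.81 to 5.75, 5.02 and 5.75 CP10K, 1.70 ± 0.12 on the log2 scale (limma adjusted p = 1.9e-05). Oas1a and Rsad2 were low throughout: Oas1a was at 0 in both Oasl1+/+ libraries and at 0.108 to 0.149 CP10K in the others, and its summed UMIs were 0 against 58, at least 4.55-fold higher per UMI against a floor of 3 UMIs over the group. Bst2 passed in every fit without 1 library. Ifit3, Oas1a and Rsad2 lost the call without library 2 or 3 labelled Oasl1-/-, and Ifit1 without any of the 3, with adjusted p up to 0.284.

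Usp18 (chr6:121245906-121270917, GRCm38), which removes the ubiquitin-like ISG15 tag and damps the interferon receptor, was at 0.0244 and 0.0429 CP10K against 0.494, 0.339 and 0.487. Its difference was 2.54 ± 0.27 (limma adjusted p = 0.00048) and it passed under each of the 5 fits without 1 library. Every library labelled Oasl1-/- lay above both Oasl1+/+ libraries. A lack of overlap was also a condition for naming the genes of largest difference, and was found in 32.8% of all tested genes. Ifi27l2a, an interferon-induced membrane protein, read 0.639 and 0.857 CP10K against 3.79, 4.45 and 3.89 (2.37 ± 0.14, limma adjusted p = 1.5e-05). Ly6e, a GPI-anchored protein of the same response, read 0.917 and 1.26 against 4.29, 4.22 and 4.61 CP10K (1.97 ± 0.14). Lgals3bp rose from 0.484 and 0.495 to 2.32, 1.77 and 2.17 CP10K, Ifitm3 from 18.8 and 19.8 to 29.8, 27.8 and 28.7, and Isg15 from 0.503 and 1.29 to 2.25, 3.22 and 2.60. Also among the genes of the list that rose were Ifi44, Zbp1, Stat2, Ifit3b, Rtp4, Xaf1, Phf11d and Ifi35. Not all moved: Irf7, the factor that amplifies interferon production, was at 0.0627 and 0.436 against 0.347, 0.263 and 0.415 CP10K and did not pass the test (limma adjusted p = 0.48).

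Interferon-inducible GTPases, which attack the vacuoles of intracellular pathogens, were higher in 5 of 8 tested genes and lower in 0 (median 1.48). Gbp3 was at 0.0324 and 0.0311 CP10K against 0.424, 0.278 and 0.327, and Igtp at 0.0566 and 0.0984 against 0.629, 0.324 and 0.428. Their differences were 2.25 ± 0.28 and 1.98 ± 0.29 and both passed in each fit without 1 library. Iigp1 (2.14 ± 0.36), Irgm2 (1.49 ± 0.32) and Gbp4, at 0 in both Oasl1+/+ libraries, lost the call without any 1 of the libraries labelled Oasl1-/- (2 calls in each of these fits). Limma-voom on summed UMIs called 1 of the 8, which was Iigp1, and Gbp3 and Igtp lost the call there.

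**Figure D3:**
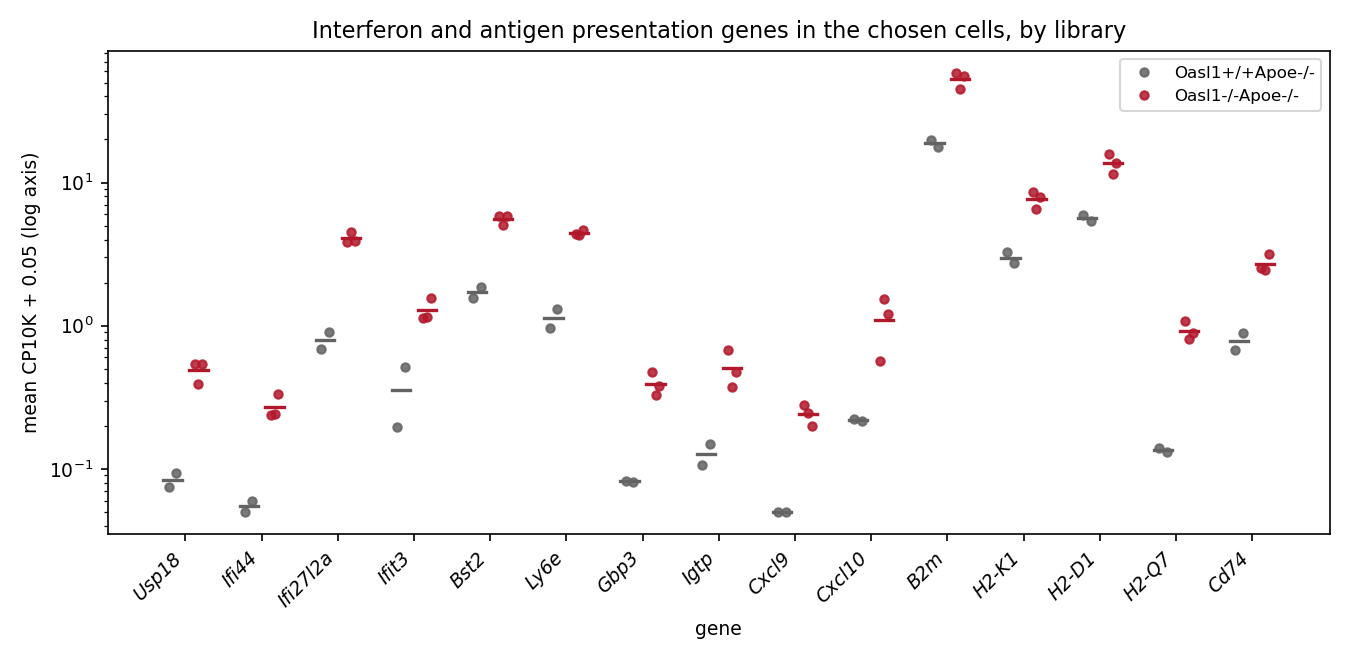
Mean CP10K + 0.05 (log axis) of 15 genes in the chosen cells, with 1 point per library, Oasl1+/+Apoe-/- in grey (2 libraries) and those labelled Oasl1-/-Apoe-/- in red (3 libraries), and a bar at each group's mean. The groups do not overlap in any of these genes, chosen from those that passed, beside 32.8% of all tested genes. B2m is at 17.7 and 19.7 in grey against 45.1 to 58.5 in red.

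Genes of class I antigen presentation rose. Class I molecules show peptides from within the cell to CD8 T cells. Of 19 tested genes 8 were higher and 0 lower (median 0.68). B2m (chr2:122147686-122153083), the light chain of all class I molecules, was at 19.7 and 17.7 CP10K against 58.5, 45.1 and 55.4, a difference of 1.49 ± 0.10 (limma adjusted p = 1.9e-05). The heavy chains H2-K1 (3.201 and 2.69 against 8.55, 6.44 and 7.92 CP10K) and H2-D1 (5.92 and 5.36 against 15.8, 11.5 and 13.7) rose by 1.36 ± 0.13 and 1.26 ± 0.12 on the log2 scale. H2-Q7 read 0.0911 and 0.0818 against 1.02, 0.756 and 0.844 CP10K (2.75 ± 0.21). H2-Q6 had 2 UMIs in the Oasl1+/+ libraries and 198 in the others, a ratio per UMI of 23.3 with a 95% counting interval of 6.37 to 194, and reads of H2-Q6 and H2-Q7 may have been split between these near copies. These 5 genes passed in every fit without 1 library and in cells with fewer than 2 macrophage markers. Psmb8, Tapbp and H2-T23 rose too and lost the call without any 1 of the libraries labelled Oasl1-/-, with adjusted p up to 0.228.

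Class II molecules, which antigen-presenting cells load with taken-up peptides, were higher in 5 of 6 tested genes (median 1.14). Cd74, the invariant chain, was at 0.625 and 0.840 CP10K against 2.48, 2.39 and 3.10 in the chosen cells (1.79 ± 0.16, limma adjusted p = 0.00012). In contractile cells of the same libraries it was at 0.518 and 0.396 against 1.23, 1.17 and 1.27, and in macrophage-marked cells at 144 and 129 against 207, 216 and 238. H2-Ab1, H2-Aa, H2-Eb1 and the protease Ctss rose by 1.005 to 1.31 on the log2 scale. In cells with fewer than 2 macrophage markers, of which Ctss is itself 1, only Cd74 of the list passed. Without libraries 1, 2 and 3 labelled Oasl1-/- there were 2, 1 and 2 calls.

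The chemokines Cxcl9 and Cxcl10 call T cells by the receptor Cxcr3. Cxcl9 was at 0 in both Oasl1+/+ libraries and at 0.230, 0.195 and 0.150 CP10K in the libraries labelled Oasl1-/-. In summed UMIs 0 stood against 93, at least 7.30-fold higher per UMI against the floor of 3 UMIs over the group. Cxcl10 was at 0.172 and 0.165 against 0.513, 1.48 and 1.15 CP10K (2.21 ± 0.33, limma adjusted p = 0.0045) and reached adjusted p = 0.059 without library 3 labelled Oasl1-/-. In contractile cells Cxcl10 stayed between 0.114 and 0.217 CP10K in all 5 libraries. Ccl4, a macrophage and lymphocyte chemokine, was at 0 against 0.126, 0.521 and 0.0852 CP10K, levels of the size in contractile cells (0.176 to 0.196 in the libraries labelled Oasl1-/-). Of 34 chemokines and cytokines 4 rose, with Ccl8 as the fourth, and 1 fell, Ccl19 (1.22 and 0.651 against 0.454, 0.316 and 0.401), with a median of 0.09. Cxcl10, Ccl4, Ccl8 and Ccl19 lost the call in cells with few macrophage markers, whereas Cxcl9 kept it. Without libraries 1, 2 and 3 labelled Oasl1-/- there were 3, 2 and 1 higher.

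Plac8, a small cysteine-rich protein of leukocytes and epithelia, had the largest rise. It was at 0.0242 and 0.0108 CP10K against 0.541, 1.25 and 1.77, and 3 UMIs stood against 639, a ratio per UMI of 50.1 (17.1 to 244). In adventitial fibroblasts it was at 5.57 CP10K and in contractile cells at 0.042. Slurp1 (named after its values were seen) rose from 0.685 and 0.797 to 2.62, 2.38 and 2.21 CP10K, while it averaged 0.0035 in contractile cells. Ifi203 had 1 UMI against 109, a ratio of 25.7 (4.51 to 1023), and Ifi44 1 against 99, a ratio of 23.3 (4.09 to 930). Plac8, Ifi203 and Ifi44 lost the call under limma-voom on summed UMIs. Gm28710 had no UMI in the chosen cells of either Oasl1+/+ library, was listed at 0 in every cell of Oasl1+/+ library 1, and stood at 0.458, 0.312 and 0.156 CP10K in the libraries labelled Oasl1-/-.

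Collagen genes rose, as did several chaperones. Of 23 tested collagens 9 were higher and 0 lower (median 0.28). Col1a1 (chr11:94936224-94953042), a chain of the main scar collagen, was at 20.3 and 29.0 CP10K against 47.6, 41.1 and 56.3 (0.98 ± 0.15, limma adjusted p = 0.0042), and its partner Col1a2 at 18.7 and 22.9 against 35.4, 32.2 and 41.0 (0.79 ± 0.11). The groups did not overlap in either gene, as in 32.8% of all tested genes, and both passed in each fit without 1 library. Col3a1 (0.47 ± 0.10), Col5a1 (0.89 ± 0.14), Col5a2 (0.73 ± 0.12), Col8a1 (0.90 ± 0.17), Col12a1, Col6a2 and Col6a3 also rose. Without libraries 1, 2 and 3 labelled Oasl1-/- there were 6, 3 and 2 collagens higher, in the 201 cells with few contractile genes 0, and in those with at least 4 choosing genes 0. Of 30 heat shock and chaperone genes 6 rose and 0 fell (median 0.29). They were the collagen chaperone Serpinh1 (13.8 and 12.4 against 18.2, 18.1 and 20.3 CP10K), the endoplasmic reticulum chaperone Hspa5, and Hspb1, Hspa1a, Hspe1 and Cryab. Of these Hspb1 (9.20 and 8.73 against 16.8, 16.8 and 14.01 CP10K, 0.81 ± 0.10) passed in every fit without 1 library, and leaving out libraries 1, 2 and 3 labelled Oasl1-/- gave 4, 2 and 1 calls.

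Among adhesive matrix genes Thbs1 stood out. Thbs1 (chr2:118111876-118127133) encodes thrombospondin 1, which binds matrix and activates latent TGF-beta, and was at 3.88 and 4.34 CP10K against 13.2, 11.1 and 17.2. It rose by 1.71 ± 0.15 on the log2 scale (limma adjusted p = 9.0e-05) and passed in every fit without 1 library. Fn1 (fibronectin, 44.9 and 44.6 against 58.4, 54.9 and 60.8 CP10K) and Sparc (59.99 and 67.9 against 83.1, 78.9 and 91.9) rose less, by 0.37 ± 0.07 and 0.40 ± 0.08, and lost the call without any 1 of the libraries labelled Oasl1-/- (1 call of 35 in each of these fits). Both fell below 0 under another choice of cells: Fn1 was at -0.11 in cells with at least 4 choosing genes, and Sparc at -0.12 in those with few contractile genes. Timp1 (chrX:20870166-20874735) rose from 23.4 and 24.3 to 38.6, 35.1 and 38.9 CP10K (0.65 ± 0.08, limma adjusted p = 0.00098). Vcam1, which binds leukocytes, rose from 14.3 and 12.5 to 19.4, 19.96 and 20.2 CP10K (0.57 ± 0.08). Timp1 and Vcam1 passed without each library and lost the call in cells with few macrophage markers. Tagged RNA of Timp1 and of Syn1 on the other strand overlaps in the annotation, as do Thbs1 and Gm29233.

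Elastic fibre genes moved both ways, with 3 of 19 higher and 2 lower (median -0.09). Elastin itself, Eln, was at 18.2 and 27.2 CP10K against 29.99, 39.2 and 46.9 (0.77 ± 0.18, limma adjusted p = 0.044), and the crosslinking oxidases Lox (0.71 ± 0.13) and Loxl3 (0.72 ± 0.16) rose. Of 6 tested fibulin genes 2 fell, Efemp1 from 1.82 and 1.54 to 0.981, 0.682 and 0.759 CP10K and Fbln1 from 1.29 and 0.984 to 0.372, 0.511 and 0.714. Eln lost the call without Oasl1+/+ library 1 or library 2 or 3 labelled Oasl1-/-, with adjusted p up to 0.222, and under limma-voom. Leaving out library 2 labelled Oasl1-/- left 0 calls in this list, and leaving out library 3 left 1, a lower gene.

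Of 9 small leucine-rich proteoglycans, the family of Lum and Dcn, 2 fell and 0 rose (median -0.20). Ogn, osteoglycin (chr13:49608046-49624501), fell from 2.77 and 2.23 to 1.04, 1.24 and 1.10 CP10K (-1.11 ± 0.14, limma adjusted p = 0.0020), and Prelp from 5.73 and 6.17 to 3.89, 4.39 and 3.83 (-0.56 ± 0.10). Dcn, at 100.2 and 79.2 against 89.3, 79.2 and 76.3 CP10K, did not pass the test. Ogn passed without each library, and Prelp lost the call without any 1 of those labelled Oasl1-/- (adjusted p up to 0.125). Abi3bp and Crispld2, secreted matrix proteins named after their values were seen, fell from 2.56 and 2.74 to 1.14, 1.01 and 1.11 CP10K and from 3.12 and 3.02 to 1.58, 1.32 and 1.39, and both passed without each library. Rbp4, the retinol carrier, fell from 3.80 and 3.90 to 1.51, 1.26 and 0.626 CP10K (-1.81 ± 0.27). Gsn, the actin-severing gelsolin and the 1 fibroblast marker that passed, fell from 16.2 and 15.8 to 8.68, 7.08 and 10.1 CP10K.

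**Figure D4:**
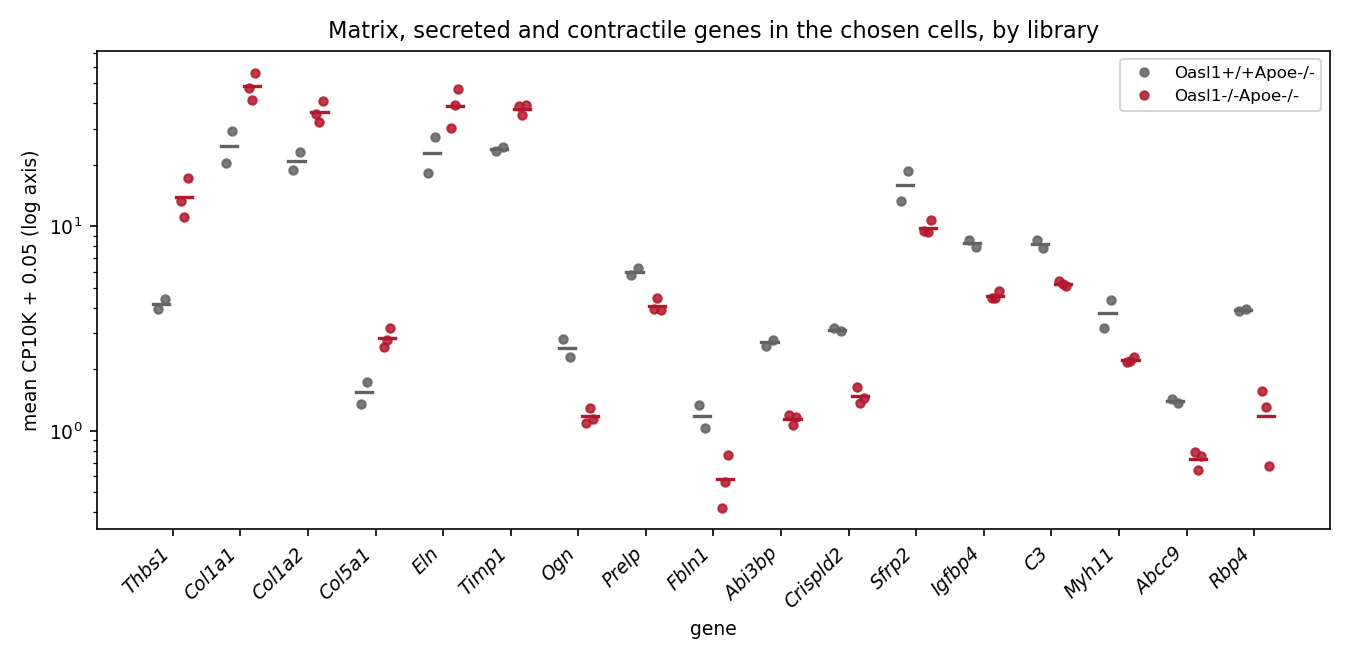
Mean CP10K + 0.05 (log axis) of 17 matrix, secreted and contractile genes in the chosen cells, with 1 point per library in grey (Oasl1+/+Apoe-/-) and red (labelled Oasl1-/-Apoe-/-) and a bar at each group's mean. Thbs1 and Col1a1 lie higher in red, and Ogn, Abi3bp and Rbp4 lower.

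Contractile genes fell in 3 of 24 tested and rose in 0 (median -0.21). Myh11 went from 3.13 and 4.299 to 2.12, 2.15 and 2.23 CP10K (-0.75 ± 0.14, limma adjusted p = 0.016), Lmod1 from 2.18 and 2.31 to 1.68, 1.40 and 1.21, and Tpm2 from 12.6 and 11.5 to 9.38, 8.55 and 8.99. Acta2, at 48.9 and 53.8 against 44.5, 39.9 and 40.6 CP10K, did not pass (limma adjusted p = 0.070), nor did Tagln and Cnn1. Without libraries 1, 2 and 3 labelled Oasl1-/- there were 2, 0 and 0 calls, and Myh11 was at 0.11 in cells with at least 4 choosing genes. Another 4 genes that fell were picked after their values were seen and belong to no list. They were the subunits of the ATP-sensitive potassium channel Kcnj8 (0.777 and 1.47 against 0.456, 0.381 and 0.416 CP10K) and Abcc9 (1.39 and 1.32 against 0.738, 0.595 and 0.706), and those of the nitric oxide receptor guanylate cyclase, Gucy1a1 (-1.36 ± 0.30) and Gucy1b1 (-1.04 ± 0.23). All 4 lost the call without library 2 or 3 labelled Oasl1-/-, with adjusted p up to 0.187.

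Complement genes split. C3 (chr17:57203970-57228136), the central component, fell from 8.49 and 7.78 to 5.36, 5.17 and 5.05 CP10K (-0.64 ± 0.09, limma adjusted p = 0.0038), and passed without each library. Cfb, a protease of the alternative pathway, had 2 UMIs against 67, a ratio per UMI of 7.89 (2.10 to 66.5), and lost the call without any 1 of the libraries labelled Oasl1-/- (adjusted p up to 0.108). Of the 12 tested complement genes 1 rose and 2 fell (median -0.05). Acute-phase genes, which mark the chosen cells against contractile cells, passed in 0 of 14 (limma, with a median of -0.22), with 4 at an unadjusted p under 0.05 and 0 by limma-voom. Lcn2 read 14.7 and 14.6 against 15.9, 11.5 and 11.9 CP10K, and Saa3 2.12 and 11.8 against 3.996, 8.56 and 5.56.

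Wnt pathway genes and antagonists fell in 3 of 19 and rose in 0 (median -0.27). The secreted antagonists Sfrp2 (13.2 and 18.5 against 9.48, 9.32 and 10.6 CP10K) and Wif1 (0.727 and 0.869 against 0.401, 0.388 and 0.320) and the intracellular antagonist Nkd1 (-1.07 ± 0.25) made up the 3. All 3 lost the call without any 1 of the libraries labelled Oasl1-/-, where 0 of the list passed. Of 40 TGF-beta and BMP genes 2 fell, the BMP antagonist Grem1 and the BMP target Id3 (17.0 and 15.4 against 13.1, 12.3 and 11.04 CP10K), and 0 rose. Both lost the call without Oasl1+/+ library 1 or without library 1 or 2 labelled Oasl1-/-, and Id3 also without library 3. In the insulin-like growth factor axis Igfbp4 fell from 8.53 and 7.91 to 4.39, 4.402 and 4.79 CP10K (-0.85 ± 0.10, limma adjusted p = 0.00074), Mdk (midkine) fell and Angptl2 rose among 32 genes, and of these Igfbp4 passed without each library. Immediate early genes, which respond within minutes to stimuli including tissue digestion, fell in 3 of 38 and rose in 0: Nr4a1 from 5.69 and 6.66 to 3.45, 3.96 and 3.75 CP10K, and Cebpd and Fosb by 0.56 and 0.44 on the log2 scale. Cebpd lost the call without library 2 or 3 labelled Oasl1-/- and Fosb without any 1 of the 3, whereas Nr4a1 passed in each fit without 1 library. The medians of the TGF-beta list (-0.01) and of immediate early genes (-0.22) stood beside 0.05 for all genes.

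The remaining lists gave few calls. Of 31 lipid genes Npc2, the lysosomal cholesterol carrier, rose from 6.82 and 6.91 to 10.8, 9.78 and 10.4 CP10K, and Fabp4 fell from 2.31 and 2.13 to 1.59, 1.51 and 1.28. Metalloproteinases and inhibitors gave 2 higher (Timp1 and Ctss) and 2 lower (Adamts15 and Adamts9) of 30, cartilage and calcification genes 1 lower of 19 (Clec11a), adhesion molecules 1 higher (Vcam1) and 1 lower (Itgb5) of 22, and mesenchymal transcription factors 1 higher of 44 (Scx, 0.274 and 0.616 against 1.18, 0.991 and 0.871 CP10K). Of a list of 18 modulated smooth muscle genes 5 rose (Col1a1, Timp1, Vcam1, Col3a1 and Fn1) and 1 fell (C3). Of 12 mitochondrially encoded genes mt-Nd2 fell, and of 81 ribosomal protein genes Rpl35 rose and Rpl5 fell. The 22 cell cycle genes and the 16 circadian genes gave 0 calls by limma and by limma-voom, with 5 and 0 genes at an unadjusted p under 0.05. The large falls of Hbb-bt and Hba-a2 belong to the red cell markers above. Other falls named for their size were Abca8a, Dapk2, Kcne4, Aldh1a1, Gm10600, Colec11 and Nfasc, none of which passed in all 5 fits without 1 library. Fth1, the ferritin heavy chain, and Cst3, cystatin C, both abundant and named after their values were seen, fell from 279 and 297 to 207, 197 and 174 CP10K and from 97.6 and 88.5 to 63.6, 59.0 and 57.7.

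Gm43301, an antisense gene on chromosome 5 over Ift81, was at 0.571 and 0.677 CP10K in the Oasl1+/+ libraries and was listed at 0 in all 3 libraries labelled Oasl1-/-. The log2 difference was -3.98 in contractile cells and -3.79 in fibroblasts. It lies 7.64 Mb from Oasl1. The strand setting of the counting is not given in the sources used here, so reads of Gm43301 and Ift81 cannot be told apart. Of the 225 genes past the threshold with 1 annotated position, 11 (4.89%) are on chromosome 5, beside 587 of all 9109 such tested genes (6.44%). Beside Gm43301 the 11 hold Oas1a at 5.96, Rpl5 at 7.01, Gbp4 at 9.78, Plac8 at 14.4 and Eln at 19.8 Mb from Oasl1. Hspb1 is at 20.95, Cxcl10 at 22.57, Cxcl9 at 22.60, Limch1 at 47.9 and Fgl2 at 93.5 Mb. Whether nearness to Oasl1 plays a part was not tested.

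The difference between the groups was then compared with that in contractile smooth muscle cells of the same libraries, by a test of the difference of differences. It passed in 178 of 9186 genes (1.94%), 58 with a more positive difference in the chosen cells and 120 with a more negative one. Col1a1 rose in the chosen cells and was at -0.02 in contractile cells, 1.001 apart (limma adjusted p = 0.0029). Eln went opposite ways, at 0.77 in the chosen cells and -0.39 in contractile cells (limma adjusted p = 0.0019 for the difference), as did Fn1 at 0.37 and -0.34. C3 was at -0.64 in the chosen cells and 0.63 in contractile cells, and Sfrp2 was likewise at -0.67 against 0.50. In the chosen cells C3 stood 5.93 (log2) above contractile cells in the Oasl1+/+ libraries and 4.66 in the others. Its level in contractile cells was thus low, and the part of free RNA there was not tested. The differences of Thbs1, B2m and Cxcl10 were larger in the chosen cells, and that of Ifi27l2a was smaller, with 2.37 against 3.89. The difference of differences did not pass for Usp18 (0.83 ± 0.31, SE), Ly6e (0.49 ± 0.21), Cd74 (0.45 ± 0.20) and Timp1 (-0.26 ± 0.24), with limma adjusted p of 0.24 to 0.67.

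**Figure D5:**
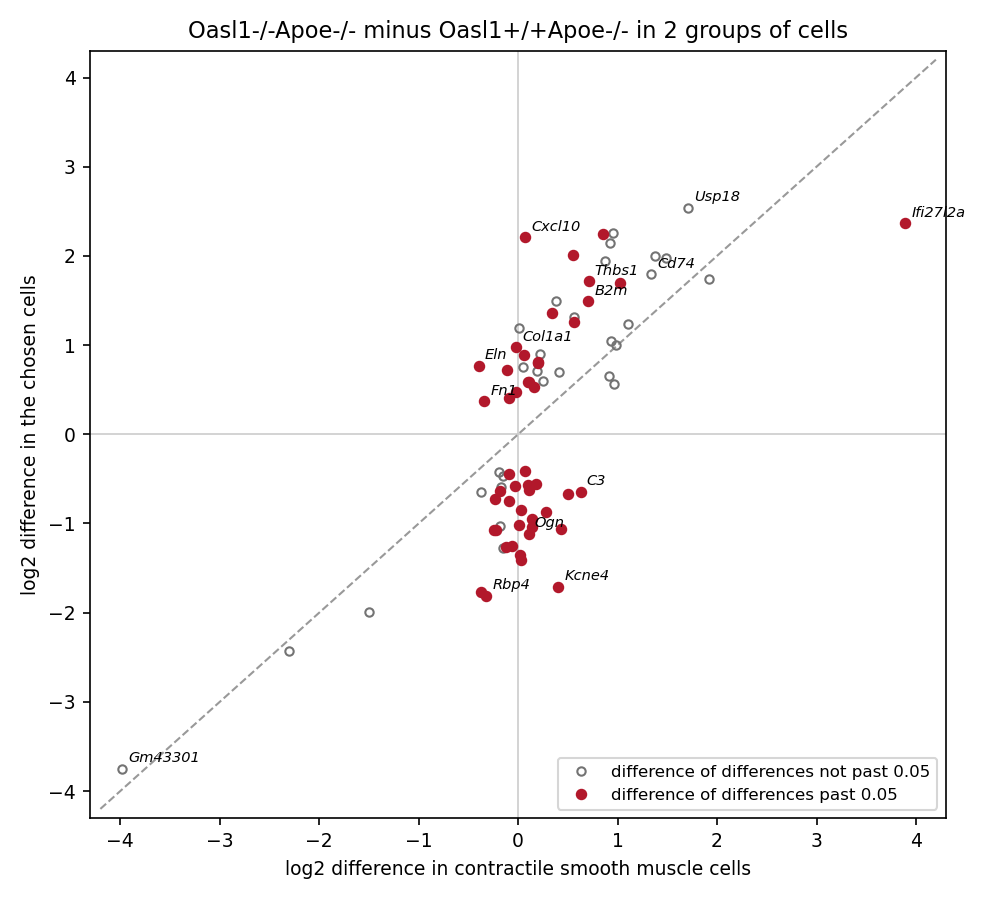
Log2 difference (labelled Oasl1-/-Apoe-/- minus Oasl1+/+Apoe-/-) in the chosen cells against that in contractile smooth muscle cells for 78 named genes past the threshold that were tested in both, with the line of equal difference dashed. Filled points (48 genes) passed the test of the difference of differences, among them Eln and Fn1, which lie above 0 in the chosen cells and below 0 in contractile cells. The genes shown had passed in the chosen cells, which favours such a pass, and 1.94% of all 9186 genes passed.

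Against adventitial fibroblasts 127 of 9186 genes passed (1.38%), 39 with a more positive and 88 with a more negative difference in the chosen cells. Eln was at 0.77 in the chosen cells and -0.75 in fibroblasts, 1.52 apart. C3, Igfbp4 and Fbln1 fell in the chosen cells and were at 1.01, 0.79 and 1.18 in fibroblasts. The class II genes Cd74, H2-Ab1, H2-Aa and H2-Eb1 had a smaller difference in the chosen cells than in fibroblasts, by -2.31 to -3.51 on the log2 scale. For the interferon genes Usp18 and Ifi27l2a the test did not pass (limma adjusted p of 0.46 and 0.23). The fibroblasts numbered 39 to 81 a library, so that their means are less precise than those of contractile cells.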

How the data were processed

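Single cells of the aortic arch were measured in 5 libraries (10x Genomics, 3′ kit, version 2). Per the submitters' notes and methods, the authors aligned and counted reads with Cell Ranger 3.1.0 (mm10), kept cells with over 200 genes and under 10% mitochondrial UMIs, removed doublets and normalised with Seurat 4.0.3. The deposited values are natural log values, ln(1 + CP10K), for 16498 genes in 18260 cells, and whole UMIs could be recovered from them. A minimum of 3 cells per gene appears to have been applied within each library, with the gene set to 0 otherwise.

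Here CP10K was averaged over the chosen cells of each library. Genes averaging at least 0.05 CP10K, without the 14 rule genes, were tested on log2(CP10K + 0.05) with limma 3.58.1 (R 4.3.3), the library as replicate, and Benjamini-Hochberg adjustment over all 9186 genes. The study tested cells, whereas no p here comes from cells. The pseudocount understates changes of low genes. To compare cell groups, the log2 level of the other cells was subtracted from that of the chosen cells in each library. Limma then tested this value between the groups. Other steps used Python 3.11.15, numpy 2.4.6, scipy 1.17.1, pandas 2.3.3 and matplotlib 3.10.9. Of the symbols 16324 matched the mouse annotation (GRCm38), and promoter windows are those of RefSeq. The fitting was tested on simulated data. Counting intervals and floors cover counting error only.

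The cells and gene lists were chosen with earlier results of these data known. Named genes are the 12 of largest difference in each direction whose groups do not overlap, up to 5 past the threshold per list, and the 15 furthest from each other cell type. All others, including further members of a list, were named after their values were seen. Near-identical genes (H2-Q6 and H2-Q7, Ifit3 and Ifit3b, Hba-a1 and Hba-a2, Hbb-bs and Hbb-bt) may share reads and are uncertain. Some genes are not reported here. Alternatives changed the pseudocount, filter, scaling, cells and libraries.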

Additional observations from a re-analysis of the deposited data

Results flagged for a closer look

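Each value below is the log2 difference between the groups in the chosen cells minus that in the other cell type, and each passed limma's test of the difference itself (Benjamini-Hochberg adjusted p of 1.0e-04 to 0.0478 against contractile cells). Slurp1, Abca8a, Colec11, Nfasc, Aldh1a1, Gm10600 and Efemp1 were among the genes that averaged below 0.05 CP10K in contractile cells. The values of such genes mostly restate the difference in the chosen cells. Only named genes past the threshold in the chosen cells were considered, and both tests use the same values of these cells. A pass is thereby favoured, and over all genes it occurred in 178 of 9186 (1.94%). For 64 named genes the difference in the chosen cells departed from that in contractile smooth muscle cells. It was more positive, in log2 units, for Plac8 3.38, Gm28710 2.67, H2-Q6 2.40, H2-Q7 2.33, Cxcl9 2.17, Cxcl10 2.14, Ifi44 2.10, Ifi203 2.09, Cfb 1.76, Slurp1 1.59, Oas1a 1.57, C1qc 1.46, Gbp3 1.40, Eln 1.17, H2-K1 1.01, Thbs1 1.01, Col1a1 1.001, Loxl3 0.83, Col5a1 0.83, B2m 0.79, Fn1 0.72, H2-D1 0.70, Bst2 0.67, Hspb1 0.61, Col1a2 0.60, Col3a1 0.50, Sparc 0.50, Npc2 0.48, Cryab 0.47 and Serpinh1 0.36. It was more negative for Fosb -0.35, mt-Nd2 -0.46, Nr4a1 -0.48, Id3 -0.49, Fth1 -0.55, Myh11 -0.65, Cebpd -0.66, Prelp -0.74, Cst3 -0.74, Crispld2 -0.83, Nkd1 -0.85, Igfbp4 -0.88, Wif1 -1.03, Abcc9 -1.08, Efemp1 -1.11, Kcnj8 -1.15, Mdk -1.15, Sfrp2 -1.17, Gucy1b1 -1.17, Abi3bp -1.18, Ogn -1.22, C3 -1.27, Gucy1a1 -1.37, Dapk2 -1.39, Gm10600 -1.42, Adamts15 -1.44, Aldh1a1 -1.46, Fbln1 -1.49, Rbp4 -1.49, Nfasc -1.51, Ifi27l2a -1.52, Colec11 -1.56, Abca8a -1.97 and Kcne4 -2.11.

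Against adventitial fibroblasts 17 named genes, considered on the same condition, passed the same test, with limma adjusted p of 7.1e-08 to 0.0499. Over all genes 127 of 9186 passed (1.38%). The difference in the chosen cells was more positive for Plac8 2.06, Eln 1.52, Cryab 0.78 and Sparc 0.48. It was more negative for Cst3 -0.44, Ogn -1.01, Abi3bp -1.43, Igfbp4 -1.64, C3 -1.65, Mdk -1.88, Fbln1 -2.24, H2-Ab1 -2.31, Kcne4 -2.68, H2-Aa -3.13, Ccl19 -3.14, H2-Eb1 -3.27 and Cd74 -3.51, with class II antigen presentation at the far end.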

How the results depend on the processing

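The number of genes past the threshold was 226 (130 higher, 96 lower). It was 218, 200, 188 and 250 with a pseudocount of 0.2 or 0.01 CP10K, a filter at 0.2 CP10K, and without shared barcodes (138 higher, 112 lower, chosen after seeing the data). It moved to 135 (79 higher, 56 lower) with no filter and to 410 (276 higher) on means of the deposited natural log values. Limma-voom gave 157 (56 higher) and, with TMM scaling, 155 (50 higher). By choice of cells it was 492 (284 and 208) with at least 2 choosing genes, 34 (28 and 6) with at least 4, 129 (82 and 47) after thinning, 102 (64 and 38) with few macrophage markers, 74 (46 and 28) with few of Saa3, Lcn2 and Serpina3n, 146 (98 and 48) with at least 2 contractile genes and 17 (14 and 3) with fewer. Without 1 library it ranged from 59 to 821 (36 to 510 higher, 22 to 311 lower). Where 1 Oasl1+/+ library was left, it was assumed to vary like the 3 others. The cause was not tested, beyond fewer cells in most of these choices. The same genes kept their sign wherever they passed in both fits.

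Deviations from the group means correlated at 0.046 between the libraries of replicate number 1 and at -0.0099 between those of number 2. The deviations of the 2 Oasl1+/+ libraries mirror each other, so these values cannot decide whether replicate numbers pair the libraries. With the replicate number as a block 284 genes passed (149 higher, 135 lower).

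The share of chosen cells was higher by 2.97 percentage points, by 4.80 with at least 2 choosing genes, 1.08 with at least 4, 1.58 after thinning, 4.16 of stromal cells and 2.84 without shared barcodes, and by 2.90 to 3.06 without 1 library. Signs turned at 4 choosing genes for Abca8a (0.17), Nfasc (0.13), Myh11 (0.11), Fn1 (-0.11), Ccl19 (0.35), Nr4a1 (0.17) and Fosb (0.19). They also turned for Efemp1 (0.0017, few of Saa3, Lcn2 and Serpina3n), Sparc (-0.12, few contractile genes), Grem1 (0.027, at least 2 contractile genes) and Saa3 (-1.03 to 1.42 without 1 library, below 0 without Oasl1+/+ library 1). Depth limits low genes, since the Oasl1+/+ libraries held 1013341 chosen-cell UMIs against 4304482.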
